A study of Mus musculus with 40 samples.

Results

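The genes described here encode the machinery that fills the release site of a synapse with vesicles and fuses them. They were chosen by name as the synapsins, the synaptotagmins, the syntaxins and syntaxin-binding proteins, the SNAP and VAMP SNAREs, the SV2 proteins, the Rab3 GTPases, the complexins, synaptophysin and the synaptogyrins, and the active zone proteins of the Rims, Unc13, Bsn and Pclo families. The name rule matched 79 mouse genes, and 72 of them had 10 or more counts in at least 35 of the 39 samples used, out of 15224 features that reached this minimum and 55539 listed. The 7 matched genes below the minimum were Vamp9, Syngr4, Syt8, Stx11, Syt15, Stx19 and Cplx4. Snap91 was matched by its name but encodes a clathrin adaptor, and it is given apart from the SNAREs.

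RNA was sequenced in bulk from cortex of the left somatomotor area, in female 3xTg-AD animals aged 2 to 4 months, a line that carries human transgenes of familial Alzheimer's disease and tauopathy in injured and sham-injured animals alike. Mice received 1, 2, 3, 4 or 5 closed head injuries (CHI), given once daily by a weight dropped on the intact skull under isoflurane, and sham-injured mice received the anesthesia alone. The comparisons ask how transcript levels moved with each successive injury and in the first day after it. There were 4 sham-injured samples, 10 samples each of 1xCHI and 5xCHI, 9 of 3xCHI and 3 each of 2xCHI and 4xCHI. The samples after 1xCHI, 3xCHI and 5xCHI were taken 30 min, 4 h or 24 h after the last injury, while those after 2xCHI and 4xCHI were taken at 24 h. The sham-injured mice were treated as a single group, whatever their time point, as in the study. Nothing in the labels ties a sample to more than its number, so that p-values measure the spread between these samples.

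At a presynaptic terminal, vesicles carrying synaptophysin and SV2 are tethered by synapsins and Rab3 and docked at the active zone, where RIM and Munc13 proteins prime them. Fusion is driven by a complex of the vesicle SNARE VAMP with the membrane SNAREs syntaxin and SNAP25 and clamped by complexin, and calcium binding to synaptotagmin triggers it. In cortex these transcripts are made by excitatory and inhibitory neurons, while many of the other SNAREs serve membrane traffic in every cell type.

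Total counts per sample ranged from 15925995 to 27859530 (median 19028763), and the members together took 1.58% to 2.14% of them (median 2.01%). All 20 neuronal markers checked were detected, with Meg3 the highest at a mean of 6565 CPM, counts scaled to library sizes of 1000000. Samples 10 and 11, taken after 5xCHI at 4 h and at 24 h, stood apart before any test: they had 1631 and 2417 CPM of the astrocyte gene Gfap and 83.9 and 140.2 CPM of the microglial gene C1qa, the highest values of all samples for both genes. Sample numbers also divided the 1xCHI group, in which samples 13 to 18 differed from samples 26, 27, 28 and 36 as given below. The labels name no batch. The sample number is used here as a description and, where stated, in alternative fits, as a covariate for the range of sample numbers or to restrict the samples. What the number stands for is not known. Values without samples 10 and 11 come from fits that left out both.

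The promoters of 56 of the 72 members were present in a RefSeq table (GRCm38.p6, from 250 bases before to 50 after a start site). The cyclic AMP response element TGACGTCA, searched on both strands, was found in 2 of the 56 (3.57%), against 397 of 11127 promoter-matched genes past the minimum (3.57%). The members were Syn1, a synapsin, and Stxbp3, a syntaxin-binding protein gene. The Syn1 window is shown because it holds this element in a core release gene, with the element in capitals, 5′ to 3′ on the minus strand, at chrX:20921034-20921113.
Syn1: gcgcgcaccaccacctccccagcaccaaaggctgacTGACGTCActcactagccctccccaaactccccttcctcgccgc
The core of the neuron-restrictive RE1 element, searched on both strands, was in no member promoter and in 12 of the 11127. The GC box GGGCGG was in 45 of the 56 (80.4%), against 68.0% of all matched genes. The TATA box TATAAA was in 4 of 56 (7.14%) against 8.92%, and the E-box CACGTG in 8 (14.3%) against 11.5%. These are matches of letters within a short window and say nothing of whether a factor binds there.

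Levels between genes were compared per length, as TPM, a transcript abundance computed from the estimated counts and the summed exon lengths of each gene and scaled to 1000000 per sample. Over the 39 samples, 23 members had a mean of 100 TPM or more and 14 had a mean under 10 TPM. The 9 most abundant members held 57.3% of the summed level.

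Among proteins of the vesicle membrane, Syp (synaptophysin) had a mean of 750.1 TPM. It was followed by Syngr1 at 280.4, the transporter-like glycoprotein gene Sv2a at 257 and Syngr3 at 151 TPM. Sv2b had 133 TPM, while Syngr2, the widely expressed synaptogyrin, had 11.3 and Sv2c had 9.77 TPM.

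Among genes that tether vesicles, the GTPase gene Rab3a had 554 TPM and Syn1, which encodes a phosphoprotein that holds vesicles in the reserve pool, had 459 TPM. Their paralogs were lower, with Syn2 at 144, Rab3c at 70.6, Rab3b at 31.8, Rab3d at 7.33 and Syn3 at 1.29 TPM, the lowest mean of all members.

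The synaptotagmins ran over a wide range of levels. Syt1, the calcium sensor of fast release, had 544 TPM and Syt11, which lacks calcium binding, had 446 TPM. Syt13, Syt4, Syt5 and Syt7, the last a slower sensor, had 169, 169, 137 and 132 TPM. Syt3, Syt16, Syt2, Syt12 and Syt17 lay between 39.3 and 14.0 TPM. Syt6, Syt14, Syt9 and Syt10 had 9.16, 4.41, 4.00 and 1.99 TPM.

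Of the SNAREs that drive release, Snap25 was the most abundant member of all at a mean of 1221 TPM. Vamp2 had 686 TPM, Stx1a 324 and Vamp1 55.9 TPM. The mean level of Snap25 was 121 times that of Snap23, its paralog in non-neuronal cells.

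The other SNAREs were led by Snap47 at 260.4 TPM and by the endosomal syntaxin Stx12 at 109 TPM. Between 70.2 and 23.1 TPM lay, in falling order, Stx7, Stx16, Stx4a, Vamp4, Vamp7, Stx5a, Vamp3 and Stx6. Snap29, Stx3, Stx17, Stx18, Stx2 and Snap23 followed from 18.8 to 10.1 TPM, and Vamp8, Stx8 and Vamp5 were at 9.88, 6.87 and 1.82 TPM.

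Of the genes that regulate the SNARE complex, the complexins Cplx1 and Cplx2 had 761 and 628 TPM. Stxbp6, Stxbp2, the tomosyn gene Stxbp5, Cplx3, Stxbp3 and Stxbp4 ran from 41.6 down to 6.23 TPM. The active zone genes were of middle level. The priming factor Unc13a had 87.2 TPM, Rims1 86.1, Rims3 83.5, the scaffold Bsn (bassoon) 70.0, Rims4 65.1, the scaffold Pclo (piccolo) 35.1, Rims2 30.6, Unc13c 8.76 and Unc13b 8.15 TPM. Snap91 had 97.3 TPM.

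**Figure D1:**
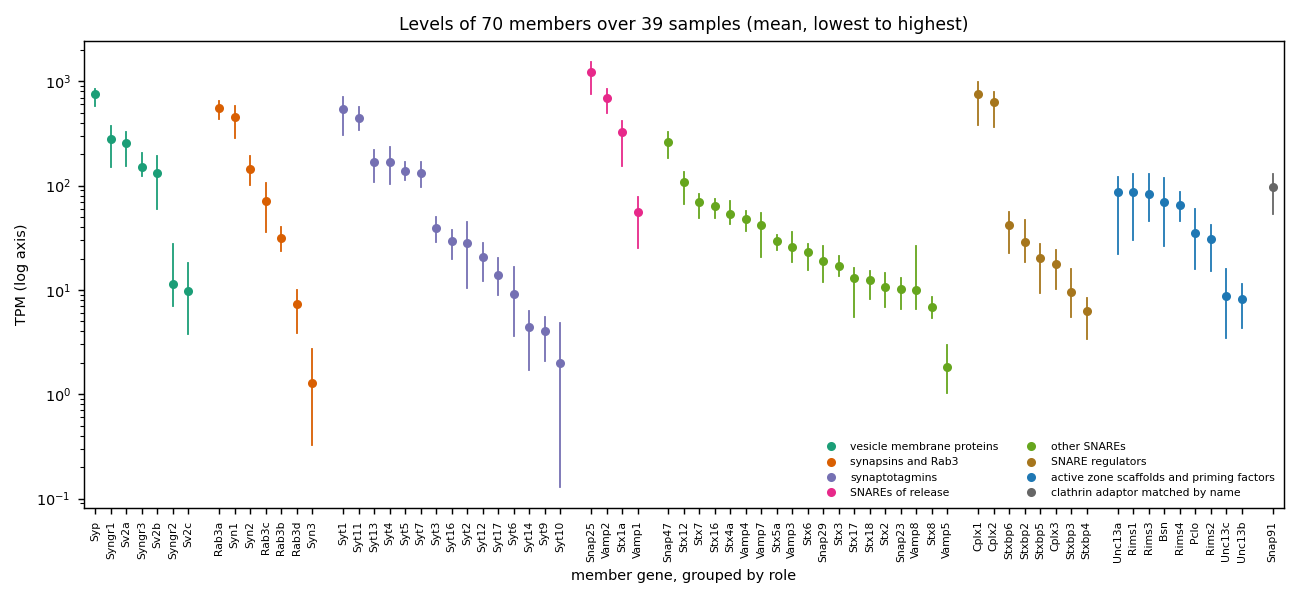
Mean TPM of 70 members on a log axis (points), with the lowest and highest of 39 samples (vertical lines), grouped and coloured by role. Snap25 stands highest at 1221 TPM and Syn3 lowest at 1.29 TPM.

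Spread between samples of one injury group, as the SD of log2 CPM, had a median of 0.19 over the members (range 0.07 to 0.91) and of 0.21 over all features. Among abundant genes, Vamp2 varied little, from 853 to 1055 CPM over all samples. Unc13a varied more, from 107 to 525 CPM, and its lowest sample was sample 11. Of the 72 members, 26 had their lowest value of all in sample 11 and 8 had their highest there. The share of all features with an extreme in sample 11 is not given here, so these counts describe the sample and not a trait of the members.

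The core release genes were compared first with the sham-injured group. Snap25 was 2926, 3204, 3046 and 3118 CPM in the 4 sham-injured samples. It ran from 2466 through a median of 2939 to 3570.3 CPM after 1xCHI, and from 1936 through 2980.4 to 3787 CPM after 5xCHI. The 5xCHI range enclosed the sham-injured range on both sides, and its lowest samples were samples 10 and 11.
After 2xCHI, Snap25 was 3418, 3541 and 3604 CPM, all above the sham-injured samples. Stx1a, Rab3a and Stx18 also lay above every sham-injured sample after 2xCHI and Unc13c below, which made 5 members without overlap, against 8.37% of all features in that comparison of 3 with 4 samples. Vamp4 and Stx12 were the only members without overlap after 4xCHI, both higher, against 5.66% of all features. No member was without overlap after 1xCHI, 3xCHI or 5xCHI, where the shares of all features were 0.315%, 0.388% and 0.394%.

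Stx1a, a syntaxin of release, was 313, 317, 315 and 322 CPM in sham-injured mice and 243 to 350.4 CPM (median 305) after 1xCHI, which covered the narrow sham-injured range. After 5xCHI it ran from 158 through a median of 310.4 to 376 CPM, and its lowest values came from samples 11 and 10.

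Cplx1, which clamps and then supports fusion, was 649.8, 648, 628 and 637 CPM in sham-injured mice. It ran from 350.2 through 537 to 641 CPM after 1xCHI and from 508 through 637 to 712 CPM after 5xCHI. The 1xCHI samples lay mostly below the sham-injured samples, while the 5xCHI median fell among them. Cplx2 was 963, 1141, 1184 and 1266 CPM in sham-injured mice and 941 to 1324 CPM (median 1114) after 1xCHI.

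The calcium sensors overlapped between groups. Syt1 was 1742, 1725, 1870.3 and 1831 CPM in sham-injured mice, 1394 to 1893 CPM (median 1504) after 1xCHI and 989 to 1936 CPM (median 1580.1) after 5xCHI, and the lowest value came from sample 11. Syt2, a fast sensor, was 83.0, 90.6, 98.2 and 114 CPM in sham-injured mice and 33.7 to 102 CPM (median 56.3) after 1xCHI. Its 1xCHI range began far below the sham-injured one and ended within it. Pvalb, a marker of the interneurons that use Syt2, was 52.4 to 71.5 CPM in sham-injured mice and 43.3 to 84.7 CPM after 1xCHI, and its part in the Syt2 values was not tested.

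Among vesicle membrane and tether genes, Syp was 1424, 1362, 1402 and 1301 CPM in sham-injured mice, 1298 to 1765 CPM (median 1498) after 1xCHI and 1239.7 to 1555 CPM (median 1377) after 5xCHI. Syn1 was 597, 585, 587 and 548 CPM in sham-injured mice and 424 to 591 CPM (median 515) after 1xCHI. Sv2a was 449, 440.1, 488 and 478 CPM in sham-injured mice and 359 to 486 CPM (median 401) after 1xCHI. Each of these groups overlapped the sham-injured group.
Vamp2 in sham-injured mice was 1003, 984, 951 and 892 CPM, and it stayed between 853 and 1055 CPM in every injury group. Rab3a was 449, 448, 413 and 398 CPM in sham-injured mice and reached 559 CPM in sample 13, at 30 min after 1xCHI.

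The remaining core genes also overlapped the sham-injured range. Vamp1 was 209, 231, 198 and 235 CPM in sham-injured mice and 107 to 221 CPM (median 189) after 1xCHI. Syt7 was 404, 386, 380.5 and 341 CPM in sham-injured mice and 326 to 496 CPM (median 389.8) after 1xCHI. Syn2 was 397, 386, 368 and 325 CPM in sham-injured mice and 352 to 417 CPM (median 374) after 1xCHI. Vamp1 was thus lower at the median after 1xCHI, and Syt7 was not.

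The large active zone genes had wide ranges. Bsn was 398, 386, 587 and 507 CPM in sham-injured mice, 243 to 547 CPM (median 319.6) after 1xCHI and 164 to 561 CPM (median 403) after 5xCHI. Rims1 was 242, 207, 326 and 279.7 CPM in sham-injured mice, 139 to 322 CPM (median 165) after 1xCHI and 85.3 to 304 CPM (median 224) after 5xCHI. Both medians were lowest after 1xCHI, and both lowest single values after 5xCHI came from sample 11.
Pclo was 322, 284, 369 and 349.6 CPM in sham-injured mice and 199 to 400.4 CPM (median 231) after 1xCHI. Unc13a, needed for priming at most cortical synapses, was 374, 441, 525 and 456 CPM in sham-injured mice, 305 to 518 CPM (median 415) after 1xCHI and 107 to 454 CPM (median 414) after 5xCHI. Its median was alike after 1xCHI and 5xCHI.

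**Figure D2:**
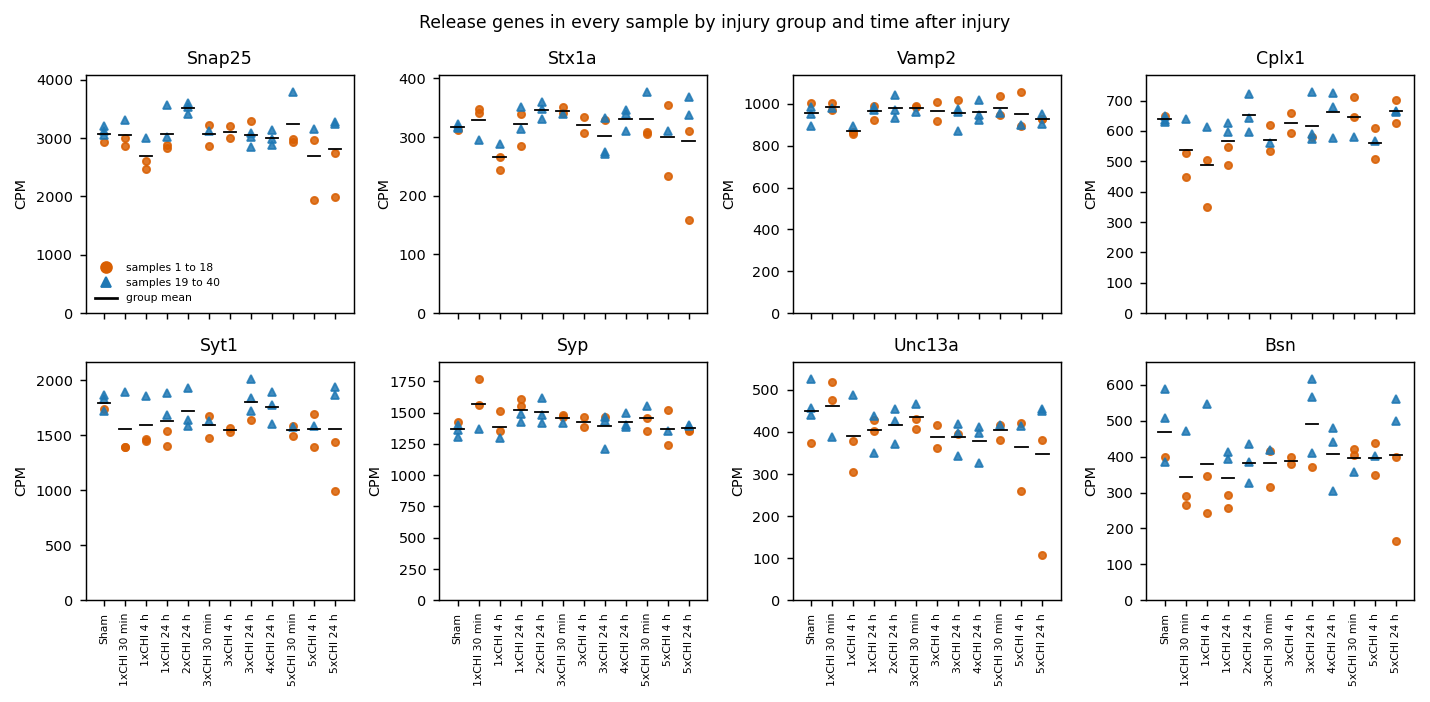
CPM of 8 release genes in every sample by injury group and time after injury, with orange circles for samples 1 to 18, blue triangles for samples 19 to 40 and black bars for group means. Vamp2 is nearly flat, while the orange points after 1xCHI lie below the blue ones for Syt1 and Bsn, and the lowest Unc13a and Bsn values come from 1 sample after 5xCHI at 24 h.

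In the edgeR quasi-likelihood test with Benjamini-Hochberg adjustment over 15224 features, no member was called at an adjusted p under 0.05 in any of the 5 injury groups against sham-injured mice, where 0% of all features were called. DESeq2 also called no member, and it called 29 features after 1xCHI and 10 after 5xCHI. These comparisons share the 4 sham-injured samples.
At an unadjusted p under 0.05, 2 members were higher and 11 lower after 1xCHI, against 17.2% of all features in either direction (10.9% higher and 6.33% lower). In the 2xCHI group 1 was higher and 2 lower, against 4.45% of all features in either direction (2.33% higher and 2.12% lower). In the 3xCHI group none was higher and 2 were lower, against 3.86% (2.26% and 1.60%). In the 4xCHI group there were none in either direction, against 1.70% (0.663% and 1.04%). In the 5xCHI group 2 were higher and 6 lower, against 11.6% (7.51% and 4.07%). The median log2 fold change of the members was −0.06 after 1xCHI, with 45 of 72 lower, and −0.07 after 5xCHI, with 53 of 72 lower, while the medians of all features were 0.01 and 0.01. Without samples 10 and 11, the 5xCHI median was −0.04, and 4 members were lower and none higher at an unadjusted p under 0.05, against 3.11% and 3.51% of all features. Scaled by library size alone, 1 member was higher and 13 lower after 1xCHI (against 8.45% and 8.80%), and 1 was higher and none lower after 4xCHI (against 0.952% and 0.677%). In bulk tissue, fewer cells of a type and less RNA per cell cannot be told apart.
These counts rested on single samples. The 11 lower members after 1xCHI were 3 without sample 39 (against 3.35% of all features lower), 5 without sample 16 (4.02%), 5 without sample 18 (4.68%), 6 without sample 13 (4.71%), 6 without sample 15 (4.92%), 7 without sample 14 (4.64%) and 7 without sample 35 (3.08%), and at most 16, without sample 36 (13.4%). The higher members after 1xCHI ranged from 0 without sample 39 (against 6.51% of all features higher) to 5 without sample 36 (13.8%), and the members' median was −0.09 without sample 6. With the sample range as a covariate, 2 members were higher and 5 lower after 1xCHI, against 5.73% and 3.47%, and none was higher and 5 were lower after 5xCHI, against 3.84% and 2.67%. In a fit of 1xCHI and sham-injured samples alone, none was higher and 4 were lower, against 6.99% and 4.14%. The same kind of fit gave higher counts in other groups, with 1 higher and 4 lower after 2xCHI (against 4.12% and 4.53%), 1 and 5 after 3xCHI (5.12% and 3.63%) and none and 3 after 4xCHI (1.53% and 2.27%), and it gave none and 6 after 5xCHI (5.45% and 4.00%). The covariate gave 2 higher and 4 lower after 2xCHI (6.80% and 5.24%), none and 2 after 3xCHI (1.31% and 1.23%) and none and 1 after 4xCHI (2.11% and 1.87%).
After 5xCHI the 6 lower members were 3 without sample 35 (against 2.44% of all features lower), and the 2 higher ones were 0 without sample 11 or 35 (against 4.36% and 3.98% higher) and 1 without sample 39 (5.31%). After 2xCHI the 2 lower members were 0 without sample 39 (2.13%) and 1 without sample 20 or 21 (2.06% and 1.39%), and the higher one was lost without sample 6, 29 or 35 (2.04%, 1.28% and 1.66% higher). After 3xCHI there were 1 lower without sample 39 (1.18%) and 4 without sample 6 (2.59%). After 4xCHI there was 1 lower member without sample 6, 20 or 40 (0.998%, 0.801% and 0.933%).

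With all samples, the active zone genes had the lowest median of the roles against sham-injured mice. After 1xCHI, 8 of 9 were lower with a median log2 fold change of −0.30, and 3 of them had an unadjusted p under 0.05, all lower, against 6.33% of all features. The low values were those of samples 13 to 18, which held 139 to 173 CPM of Rims1, 243 to 345 CPM of Bsn and 199 to 232 CPM of Pclo. The 4 other 1xCHI samples held 253 to 322, 394 to 547 and 288 to 400.4 CPM of these genes, and their ranges overlapped those of sham-injured mice. With the sample range as a covariate the median after 1xCHI was −0.20, with 8 of 9 lower and 1 at an unadjusted p under 0.05. In the fit of 1xCHI and sham-injured samples alone none was. After 5xCHI, 9 of 9 were lower with a median of −0.23, and without samples 10 and 11, 7 of 9 were lower with a median of −0.09. In that fit they no longer lay lowest, since the vesicle membrane genes had a median of −0.12 and Snap91 had −0.14. The synaptotagmins had −0.09, level with the active zone genes. The active zone medians of the groups with 2, 3 and 4 injuries were −0.10, −0.12 and −0.17. Leaving out 1 sample at a time, the active zone median ranged from −0.36 to −0.26 after 1xCHI and was the lowest of the roles in all 14 fits. With the covariate the medians after 2, 3, 4 and 5 injuries were −0.16, −0.01, −0.25 and −0.08, and the synaptotagmins lay lower after 3xCHI (−0.03) and level after 5xCHI (−0.08). After 5xCHI the active zone median ranged from −0.31 to −0.11 in the fits without 1 sample, the last without sample 35, and Snap91 lay lower without sample 11, 35 or 39. It ranged from −0.18 (without sample 6) to −0.03 (without sample 35) after 2xCHI, from −0.19 (without sample 6) to −0.04 (without sample 35) after 3xCHI, and up to −0.07 after 4xCHI (without sample 25). Vesicle membrane genes lay lower than active zone genes without sample 35 after 2xCHI and 3xCHI, and Snap91 lay lower without sample 19 after 2xCHI and without sample 39 after 3xCHI.
Markers of other cell types differed from sham-injured mice in the same fits, none of them at the adjusted threshold. After 5xCHI, 14 of 15 microglial markers were higher (median log2 fold change 0.87), 11 of 15 astrocyte markers were higher (0.26), 10 of 14 oligodendrocyte markers were lower (−0.09), 13 of 20 neuronal markers were lower (−0.07), 8 of 15 endothelial markers were higher (0.06) and 10 of 15 meningeal markers were lower (−0.11). In the fit without samples 10 and 11, 12 microglial markers were higher (0.20), 8 astrocyte markers were higher (0.11), all 14 oligodendrocyte markers were lower (−0.35, with 8 at an unadjusted p under 0.05) and 14 neuronal markers were lower (−0.05). After 1xCHI, 14 of 15 meningeal markers were higher (0.33), but 8 were lower without sample 15 (−0.03), and 9 microglial, 9 astrocyte, 10 oligodendrocyte and 10 endothelial markers were lower (−0.03, −0.06, −0.06 and −0.16), while 11 of 20 neuronal markers were higher (0.02). Sums of these lists in sham-injured mice were 404 to 451 CPM for microglia, 4621 to 5840 CPM for astrocytes, 5149 to 7365 CPM for oligodendrocytes and 18851 to 20061 CPM for neurons. Their part in the active zone values was not tested.
The 5 SNAREs of release had medians of −0.06, 0.09, 0.00, 0.01 and −0.05 in the groups with 1 to 5 injuries. In the fit without samples 10 and 11, 3 of the 5 were higher after 5xCHI and the median was 0.00. The 19 other SNAREs had medians between 0.03 and 0.04 in each of the 5 comparisons, and of 0.00 after 5xCHI without those samples. Synaptotagmins were lower in 11 of 15 after 1xCHI (median −0.06) and in 14 of 15 after 5xCHI (median −0.13). In the fits without 1 sample, the SNAREs of release had medians from −0.09 to −0.03 after 1xCHI and from −0.09 (without sample 35) to −0.01 (without sample 10) after 5xCHI, and the synaptotagmins from −0.12 (without sample 6) to −0.05 after 1xCHI. After 2xCHI the SNAREs of release ranged from 0.04 (without sample 35) to 0.12 (without sample 29). None of these genes passed the adjusted threshold.

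Among the members with the lowest p after 1xCHI were Syngr1 and Syt2, both with values lower than in sham-injured mice. The log2 fold change was −0.28 for Syngr1 (SE 0.10, edgeR adjusted p = 0.238) and −0.57 for Syt2 (SE 0.22, adjusted p = 0.239). Syngr1 was 565, 540.4, 542 and 514 CPM in sham-injured mice and 378 to 550.3 CPM (median 416) after 1xCHI, so that the groups overlapped. Syngr1 overlaps Rpl3 on the genome, and whether the counting used strand is not given in the sources used here, so that reads of such neighbours could be shared. This holds for 31 members in all.

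After 2xCHI the lowest p-values belonged to Unc13c (log2 fold change −0.65, SE 0.24), Stx18 (0.22, SE 0.10) and Sv2c (−0.54, SE 0.25), each with an edgeR adjusted p of 0.943. After 3xCHI they belonged to Sv2c (−0.63, SE 0.19), Unc13c (−0.51, SE 0.18) and Syt2 (−0.38, SE 0.22), each with an adjusted p of 0.911. After 4xCHI, Syt6 (−0.52, SE 0.26), Vamp4 (0.12, SE 0.07) and Unc13b (−0.30, SE 0.17) each had an adjusted p of 1.00, and the Syt6 value was −0.30 without sample 39.

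After 5xCHI the lowest p-values belonged to Sv2c, Rab3c and Syngr2. Sv2c, the SV2 form best known from the basal ganglia, was 39.8, 53.9, 36.2 and 59.4 CPM in sham-injured mice and 23.0 to 42.0 CPM (median 27.8) after 5xCHI. Its values after 5xCHI lay below those of sham-injured mice except for an overlap at the top. The log2 fold change was −0.65 (SE 0.19, edgeR adjusted p = 0.360), and −0.59 without samples 10 and 11 (adjusted p = 0.597).
A list of 10 striatal markers, written after the Sv2c values were seen, summed to 187 to 953 CPM in sham-injured mice, 188 to 804 CPM after 5xCHI and 215 to 1020.4 CPM after 1xCHI, and Drd1 was between 3.07 and 41.0 CPM in all samples. Sample 39 had the highest sham-injured value of both Sv2c and this list, and the part of striatal tissue in the Sv2c values was not tested.
Rab3c was 361, 323, 379 and 330.4 CPM in sham-injured mice and 168 to 336 CPM (median 288) after 5xCHI, a log2 fold change of −0.36 (SE 0.14, adjusted p = 0.374) that was −0.27 without samples 10 and 11. Syngr2 was 7.15, 6.75, 4.24 and 6.03 CPM in sham-injured mice and 5.63 to 19.1 CPM (median 7.45) after 5xCHI, with the highest value in sample 11. Its log2 fold change of 0.55 (SE 0.22, adjusted p = 0.391) was 0.35 without sample 11 and 0.22 without samples 10 and 11.

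**Figure D3:**
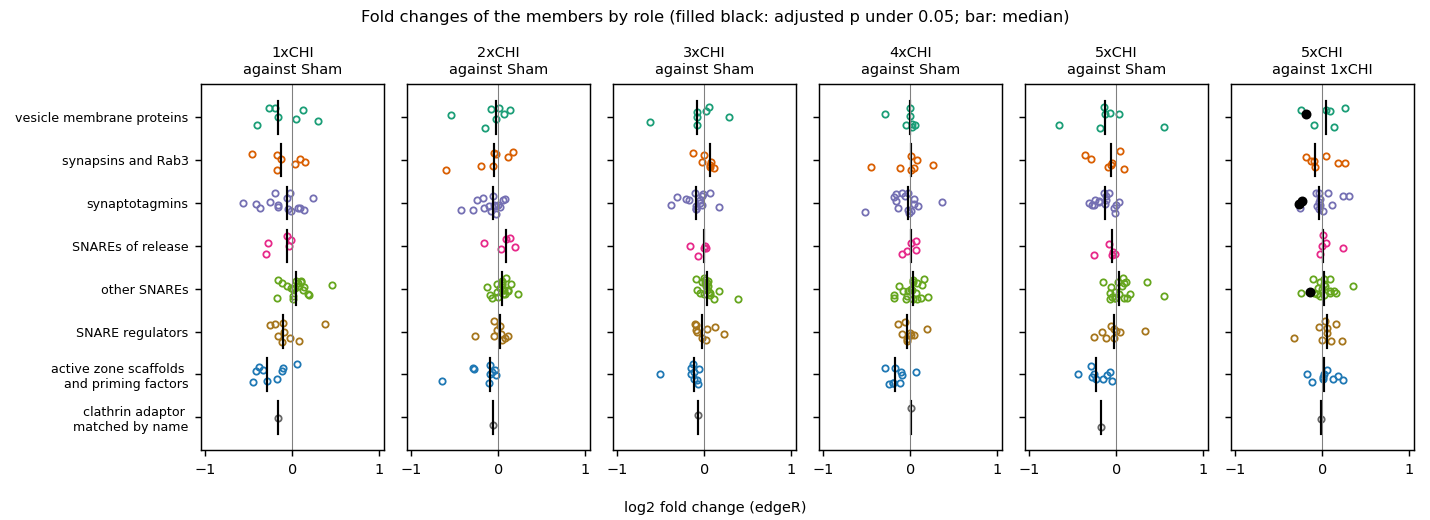
Log2 fold changes of the 72 members (open circles) by role in 6 comparisons, with a black bar at the median of each role and filled black circles for an adjusted p under 0.05. Most active zone genes lie left of 0 after 1xCHI (8 of 9) and 5xCHI (9 of 9) against sham-injured mice, and the 4 filled circles are all in the comparison of 5xCHI with 1xCHI.

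The comparison of 5xCHI with 1xCHI, 10 samples each with times combined, called 346 of 15224 features (2.27%), of which 169 were lower (1.11%) and 177 higher (1.16%). Of the 72 members, 4 were called, all lower after 5xCHI than after 1xCHI, and none was called higher. They were Syngr3, Syt5, Vamp4 and Syt7. Against sham-injured mice, their log2 fold changes after 5xCHI were −0.14, −0.03, −0.05 and −0.14, none of them called. Between 5xCHI and 1xCHI, the median log2 fold change of the members was 0.01 and that of all features was −0.00, with 40 members higher and 32 lower. At an unadjusted p under 0.05, 5 members were higher and 9 lower, against 8.55% and 8.63% of all features. Scaled by library size alone, 217 features were called higher and 91 lower, and at an unadjusted p under 0.05 the members were 7 higher and 7 lower, against 11.0% and 5.92% of all features. When samples 10 and 11 were left out, 10 were higher and 7 lower, against 8.80% and 10.5% of all features, and 47 of the 72 had higher values, with a median of 0.04. In the fits without 1 sample, the 5 higher members were 3 without sample 12 or 16 (against 8.05% and 7.72% of all features higher) and 8 without sample 36 (10.7%). With the sample range as a covariate, 9 were higher and 10 lower, against 10.6% and 9.94%, and in a fit of the compared groups alone 2 were higher and 7 lower, against 6.31% and 5.66%.

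Syngr3, a synaptogyrin of the vesicle membrane (ENSMUSG00000007021, chr17:24685092-24689955, minus strand, GENCODE M21 on GRCm38), ran from 111 through a median of 120.0 to 137 CPM after 1xCHI and from 98.7 through 107 to 122 CPM after 5xCHI. Most 5xCHI samples lay below the 1xCHI samples, with overlap. The log2 fold change was −0.18 (SE 0.05, edgeR adjusted p = 0.0300). Sham-injured samples held 105, 131, 128 and 109.7 CPM, which spanned nearly both groups.
Syt5, a synaptotagmin of synaptic and dense-core vesicles (ENSMUSG00000004961, chr7:4539765-4547541, minus strand), ran from 100.1 through 131 to 176 CPM after 1xCHI and from 94.1 through 109 to 135 CPM after 5xCHI. The highest 1xCHI values came from samples 13 and 16 and the groups overlapped. The log2 fold change was −0.27 (SE 0.07, adjusted p = 0.0394).

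Vamp4, a SNARE of traffic between the Golgi network and endosomes (ENSMUSG00000026696, chr1:162570515-162599084, plus strand), ran from 76.4 through 81.5 to 98.5 CPM after 1xCHI and from 70.2 through 76.2 to 80.5 CPM after 5xCHI. The ranges overlapped between 76.4 and 80.5 CPM. The log2 fold change was −0.15 (SE 0.04, adjusted p = 0.0427).
Syt7, a high-affinity calcium sensor of slow release and vesicle replenishment (ENSMUSG00000024743, chr19:10389090-10453180, plus strand), ran from 326 through 389.8 to 496 CPM after 1xCHI and from 280.2 through 345 to 383 CPM after 5xCHI. It overlapped an annotated gene, Gm26859, on the genome. The log2 fold change was −0.23 (SE 0.06, adjusted p = 0.0475).

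**Figure D4:**
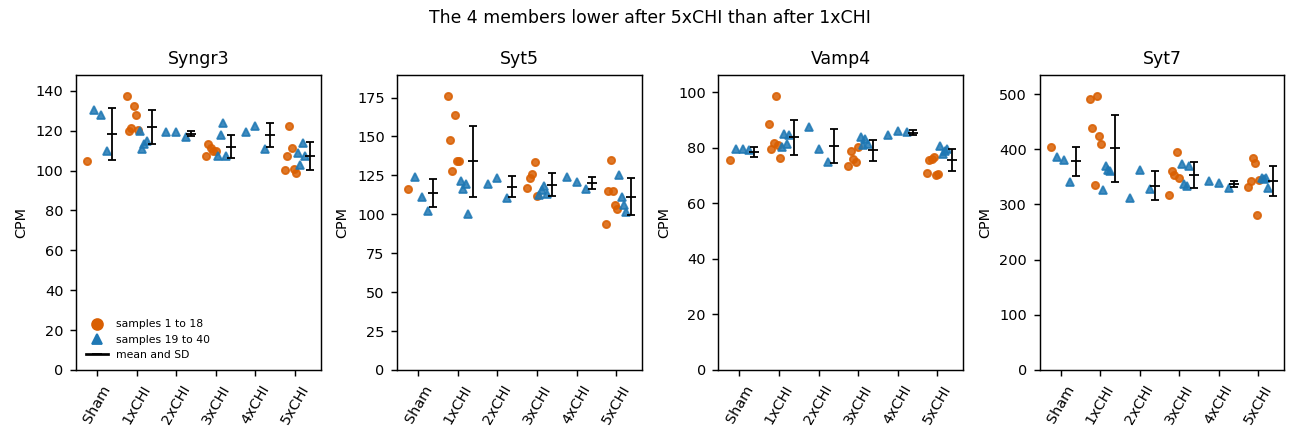
CPM of Syngr3, Syt5, Vamp4 and Syt7 in every sample by injury group, with orange circles for samples 1 to 18, blue triangles for samples 19 to 40, and the mean and SD in black. The highest 1xCHI values are orange (up to 176 CPM for Syt5), and the blue points of 1xCHI and 5xCHI overlap.

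The 4 calls were sensitive to single samples. Leaving out 1 of the 20 samples at a time, Syngr3 stayed under the threshold in 14 of 20 fits, Syt5 in 9, Vamp4 in 9 and Syt7 in 7. Syngr3 lost its call without sample 7, 11, 12, 13, 16 or 17 (highest adjusted p = 0.0756). The highest adjusted p-values were 0.0959 for Syt5, 0.102 for Vamp4 and 0.122 for Syt7. All 4 calls were lost without sample 7, 11, 12, 13, 16 or 17, and none of the log2 fold changes changed sign.
Cplx3, a complexin, was called in 1 of these 20 fits, the one without sample 15. It ran from 13.5 through 20.4 to 30.1 CPM after 1xCHI, with the lowest value in sample 15, and from 13.0 through 16.7 to 19.7 CPM after 5xCHI, and the groups overlapped. Its log2 fold change was −0.33 (SE 0.11, edgeR adjusted p = 0.103), and −0.38 without sample 15 (adjusted p = 0.0493).
Without samples 10 and 11 together, no member was called and 120 features were, and the log2 fold changes of Syngr3, Syt5, Vamp4 and Syt7 were −0.17, −0.26, −0.13 and −0.20 (edgeR adjusted p = 0.0646, 0.0724, 0.104 and 0.0863). A fit of the 1xCHI and 5xCHI samples alone called no member and no feature. Within samples 1 to 18, 7 members and 1594 features were called: Syt2, Syt14, Cplx1 and Snap29 were higher after 5xCHI, and Syt5, Stx4a and Syngr3 lower. Within samples 19 to 40 no member was called, and the log2 fold changes were −0.09 for Syngr3, −0.05 for Syt5, −0.07 for Vamp4 and −0.05 for Syt7.

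Marker lists of cell types were measured in the same comparison. All 15 microglial markers had higher values after 5xCHI than after 1xCHI, 9 of them called, with a median log2 fold change of 0.60, and their summed level was 347 to 483 CPM after 1xCHI and 419 to 1380.0 CPM after 5xCHI. When samples 10 and 11 were left out, the 5xCHI sums ended at 575 CPM, and 14 of 15 microglial markers had higher values, none of them called, with a median of 0.21. The 9 called were 1 without sample 10 or 11, 3 without sample 13, 16 or 17, 4 without sample 14 and at most 12, without sample 31. All 15 astrocyte markers were higher (1 called, median 0.22), with sums of 3619 to 5904 and 4259 to 8444 CPM. Without those samples the 5xCHI astrocyte sums ended at 5879 CPM, and 12 of 15 markers were higher (0 called, median 0.10).
Of 14 oligodendrocyte markers, 8 had lower values (0 called, median −0.05), with sums of 5206 to 8235 CPM after 1xCHI and 4371 to 9430.4 CPM after 5xCHI. In the fit without samples 10 and 11, 14 of 14 were lower (0 called, median −0.25), with 5xCHI sums up to 7183 CPM. Of 15 endothelial markers, 12 were higher (0 called, median 0.16), with sums of 591 to 800.4 and 643 to 774 CPM. Of 15 meningeal markers, 12 were lower (1 called, median −0.46), with sums of 590.2 to 4267 CPM after 1xCHI, the highest in sample 15, and 576 to 1366 CPM after 5xCHI. Without sample 15, 9 were lower, with a median of −0.08. Of 20 neuronal markers, 11 were lower (1 called, median −0.02; 8 lower and a median of 0.04 without samples 10 and 11), with sums of 17375 to 21034 and 17589 to 24068 CPM. No marker of the glial lists was at 0, and the part of cell composition in the 4 calls was not tested.

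Time after injury gave no called member with all 39 samples in the fit. Against sham-injured mice, 10 members had an unadjusted p under 0.05 at 30 min after 1xCHI (5 higher and 5 lower, against 19.7% of all features, 13.0% higher and 6.71% lower), 10 at 4 h (1 higher and 9 lower, against 10.5%, 6.96% higher and 3.57% lower) and 4 at 24 h (none higher and 4 lower, against 6.02%, 3.55% higher and 2.47% lower). No feature was called in these 3 comparisons by edgeR, while DESeq2 called 28, 11 and 0 features, none of them members. Scaled by library size alone, 3 members were higher and 15 lower at 30 min, against 7.30% and 13.9% of all features. Leaving out 1 sample at a time, the members at 30 min were none higher and 2 lower without sample 13 (against 2.23% and 1.55% of all features), 2 and 1 without sample 14 (7.24% and 2.22%), 3 and 2 without sample 39 (9.14% and 3.80%) and 8 and 23 without sample 27 (20.4% and 19.5%). The 9 lower members at 4 h were 1 without sample 16 (against 1.46% of all features lower), 3 without sample 15 (2.46%), 4 without sample 20 (3.49%), 5 without sample 35 (3.17%) and 22 without sample 36 (16.0%). The 4 at 24 h were 0 without sample 17, 18, 35 or 39 (1.68%, 1.26%, 1.47% and 1.93%), 2 without sample 20 (2.19%) and 10 without sample 26 (6.56%). With the covariate there were 3 higher and 3 lower at 30 min (against 7.69% and 5.01%), 1 and 4 at 4 h (4.51% and 3.17%) and none and 3 at 24 h (2.75% and 2.22%).
The SNAREs of release were lower in 3 of 5 at 30 min, 5 of 5 at 4 h and 3 of 5 at 24 h, with median log2 fold changes of −0.01, −0.25 and −0.00. The active zone genes were lower in 6, 8 and 9 of 9, with medians of −0.21, −0.29 and −0.32, and of −0.11, −0.17 and −0.23 with the covariate. Leaving out 1 sample at a time, the active zone medians ranged from −0.44 (without sample 27) to −0.13 (without sample 14) at 30 min. They ranged from −0.64 (without sample 36) to −0.12 (without sample 15) at 4 h and from −0.39 to −0.21 at 24 h. These ranges overlapped. Active zone genes lay lowest of the roles in 3 of 7, 4 of 7 and 8 of 8 of these fits. The SNAREs of release ranged from −0.07 to 0.01, −0.34 to −0.17 and −0.08 to 0.02.
At 30 min after 1xCHI, leaving out sample 27 raised the count from 0 to 19 members and 3601 features. Of these members, 6 were higher (Stxbp2, Stx4a, Syt5, Rab3a, Stx5a and Syp, log2 fold changes 0.84, 0.70, 0.51, 0.34, 0.33 and 0.28) and 13 lower. The lower ones were Syn3, Syt2, Unc13c, Syt14, Stx17, Sv2b, Stxbp5, Rab3d, Stxbp4, Syngr1, Vamp7, Snap91 and Cplx1, from −1.35 for Syn3 to −0.39 for Cplx1. Stx17 had the lowest adjusted p of them (0.00112).
At 4 h after 1xCHI, leaving out sample 36 raised the count from 0 to 5 members and 578 features. All 5 were lower, among them Syt2, Cplx1, Syngr1 and Rab3d, at log2 fold changes of −1.11, −0.61, −0.54 and −0.52 (adjusted p from 0.0245 to 0.0487). Samples 27 and 36 were the only samples of their groups with numbers from 19 to 40, and only 2 samples of the group were left in each of these fits.

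Within 3xCHI and 5xCHI, each time point was compared with the group taken 24 h after the preceding injury. At an unadjusted p under 0.05, no member stood out at 30 min or 4 h after 3xCHI (against 1.88% of all features, 1.16% higher and 0.716% lower, and 2.00%, 1.04% higher and 0.952% lower). At 24 h 3 did (against 4.57%, 2.44% higher and 2.13% lower), of which Syn2 and Syn3 were higher and Stx18 lower. After 5xCHI there were 5 at 30 min (2 higher and 3 lower, against 6.36%, 3.52% higher and 2.84% lower), 6 at 4 h (2 higher and 4 lower, against 5.33%, 3.53% and 1.81%) and 8 at 24 h (3 higher and 5 lower, against 6.44%, 4.26% and 2.18%). Without samples 10 and 11, 2 were higher and 4 lower at 30 min (against 4.14% and 3.99%), 2 and 1 at 4 h (1.78% and 1.45%), and 1 and 3 at 24 h (2.48% and 2.86%), where the median log2 fold change of the members went from −0.05 to −0.00. Scaled by library size alone, none was higher and 8 were lower at 30 min (against 2.38% and 3.92%), and at 24 h 2 were higher and 7 lower (3.68% and 2.92%). With the covariate there was no member in either direction at 30 min (against 2.39% and 2.68%), where the members' median went from −0.04 to 0.01, 1 higher and 1 lower at 4 h (2.19% and 1.86%) and 1 and 4 at 24 h (2.71% and 2.25%). DESeq2 gave 2 and 5, 4 and 4, and 3 and 7 (3.53% and 3.14%, 3.65% and 2.03%, 4.35% and 2.54%). In the fits without 1 sample, the higher members at 30 min after 5xCHI ranged from 0 to 2. They were all lost without sample 7, 8, 24 or 40 (against 2.25%, 2.19%, 1.92% and 2.41% of all features higher) and were 2 without sample 31 (3.70%). At 4 h they ranged from 0 without sample 24 (2.31%) to 4 without sample 25 (2.25%). At 24 h they ranged from 1 without sample 11, 24 or 40 (2.32%, 2.63% and 3.11%) to 4 without sample 33 or 34 (7.25% and 7.28%). The lower ones ranged from 1 without sample 8 (against 1.75% of all features lower) to 4 without sample 24 or 31 (2.26% and 3.24%) at 30 min. At 4 h they ranged from 1 without sample 10 (1.195%) to 5 without sample 9 or 25 (2.57% and 1.49%). At 24 h they ranged from 2 without sample 12 (1.34%) to 9 without sample 33 (3.83%). The 3 members at 24 h after 3xCHI were all lost without sample 29 (1.45% and 1.13%), and with the covariate there were 3 higher and 2 lower (4.62% and 4.91%). For 3xCHI at 30 min the library size scaling gave no member and a split of 1.36% higher and 0.453% lower. None was called by edgeR or DESeq2. The lowest p-values were those of Vamp4 at 30 min (log2 fold change −0.18, SE 0.07, adjusted p = 0.780), Vamp1 at 4 h (−0.50, SE 0.18, adjusted p = 0.925) and Vamp4 at 24 h (−0.19, SE 0.07, adjusted p = 0.635).
A joint test of time within 1xCHI, 3xCHI and 5xCHI called 5 features (0.0328%) and no member, and Rab3d had the lowest adjusted p of the members (0.544). A trend over 1 to 5 injuries at 24 h called no feature, and 5 members had an unadjusted p under 0.05 (1 higher and 4 lower, against 4.25% and 2.95% of all features). Without samples 10 and 11, 3 were higher (Rims3, Bsn and Stxbp6) and none lower, against 4.07% and 3.49%. Leaving out 1 sample at a time, the higher members ranged from 0 without sample 17 or 18 (against 3.55% and 2.97% of all features) to 3 without sample 11, 19 or 26 (4.02%, 5.29% and 6.10%), and the lower ones from 0 without sample 11 (3.39%) to 6 without sample 33 or 34 (3.20% and 3.501%). The fit with the sample range as a covariate gave 1 higher and 8 lower (5.08% and 3.87%), and with DESeq2 1 and 7 (4.42% and 3.24%). Rims3 led with 0.09 log2 units per injury (SE 0.04, adjusted p = 0.670; 0.13 without samples 10 and 11, adjusted p = 0.618) and Syngr3 fell by 0.04 per injury (SE 0.02, adjusted p = 0.670). The change from 30 min to 24 h did not differ between 5xCHI and 1xCHI for any member at the adjusted threshold, with 1 member at an unadjusted p under 0.05, against 2.18% of all features.

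The 6 pairs of paralogs compared here were taken as log2 ratios of their counts within each sample, which need no scaling between samples. Those described were Vamp1 to Vamp2, Cplx1 to Cplx2, Syn1 to Syn2, Snap25 to Snap23 and Syt2 to Syt1, in 6 comparisons. Over all pairs, of the 36 exact two-sided permutation tests, 3 had p under 0.05 before and none after Benjamini-Hochberg adjustment (smallest adjusted exact permutation p = 0.319).
Cplx1 to Cplx2 differed between 5xCHI and 1xCHI by 0.26 (exact permutation p = 0.0470, adjusted p = 0.319) and Syt2 to Syt1 by 0.40 (exact permutation p = 0.0483, adjusted p = 0.319), both ratios higher after 5xCHI. Their ranges overlapped. Against sham-injured mice, these 2 ratios differed by −0.25 and −0.47 after 1xCHI and by 0.01 and −0.07 after 5xCHI. The Cplx1 to Cplx2 difference between 5xCHI and 1xCHI was 0.17 without sample 11, which had the highest ratio of the 5xCHI group, and 0.15 without samples 10 and 11. Snap25 to Snap23 was 7.58 in sham-injured mice and between 7.39 and 7.75 in the injury groups. Its lowest mean was that of 5xCHI, which differed from sham-injured mice by −0.19, and by −0.01 without samples 10 and 11.

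Over all samples, 40.7% of the variance of the members, each scaled to unit SD, lay on a first component along which 49 members rose with Snap25 and 23 fell. All 9 active zone genes, 11 of 15 synaptotagmins and 4 of 5 SNAREs of release were on the rising side, while 11 of 19 other SNAREs were on the falling side. The highest correlation with the component was that of Syt1 (0.96) and the lowest that of Stxbp2 (−0.94), a syntaxin-binding protein gene of non-neuronal secretory cells, followed by Syngr2 (−0.79), Stx3 (−0.78), Stx2 (−0.77) and Vamp8 (−0.76). These are descriptions over 39 libraries that share genes and groups.
Sample 11 lay lowest on this component at −14.96, and the next were samples 13, 16, 17, 15, 14, 10 and 18, from −9.36 to −5.19. The 6 of these from the 1xCHI group were all its samples numbered 13 to 18. The 4 sham-injured samples lay between 0.522 and 7.31.

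Within the 1xCHI group, 24 members were lower in every one of samples 13 to 18 than in any of samples 26, 27, 28 and 36, and 6 were higher, against 14.5% lower and 15.2% higher over all features. The lower ones included Snap25, Cplx1, Syt1, Sv2a, Syn1, Rims1, Bsn and Pclo, and the higher ones were Syngr2, Syngr3, Syt5, Stx4a, Stx5a and Stxbp2. In the 5xCHI group, 4 members were lower in every one of samples 7 to 12 than in samples 31 to 34 (Snap25, Stx6, Sv2c and Vamp4) and 4 were higher (Stx2, Stx3, Syt3 and Vamp3), against 3.30% and 3.33% over all features. With the sample range as a covariate, 48 members were higher and 24 lower in samples 19 to 40 (median log2 difference 0.10, against −0.03 over all features). Sham-injured mice had 1 sample in the first range and 3 in the second, and 2xCHI and 4xCHI had none in the first. With this covariate no member was called against sham-injured mice, and the same 4 members were called between 5xCHI and 1xCHI.

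**Figure D5:**
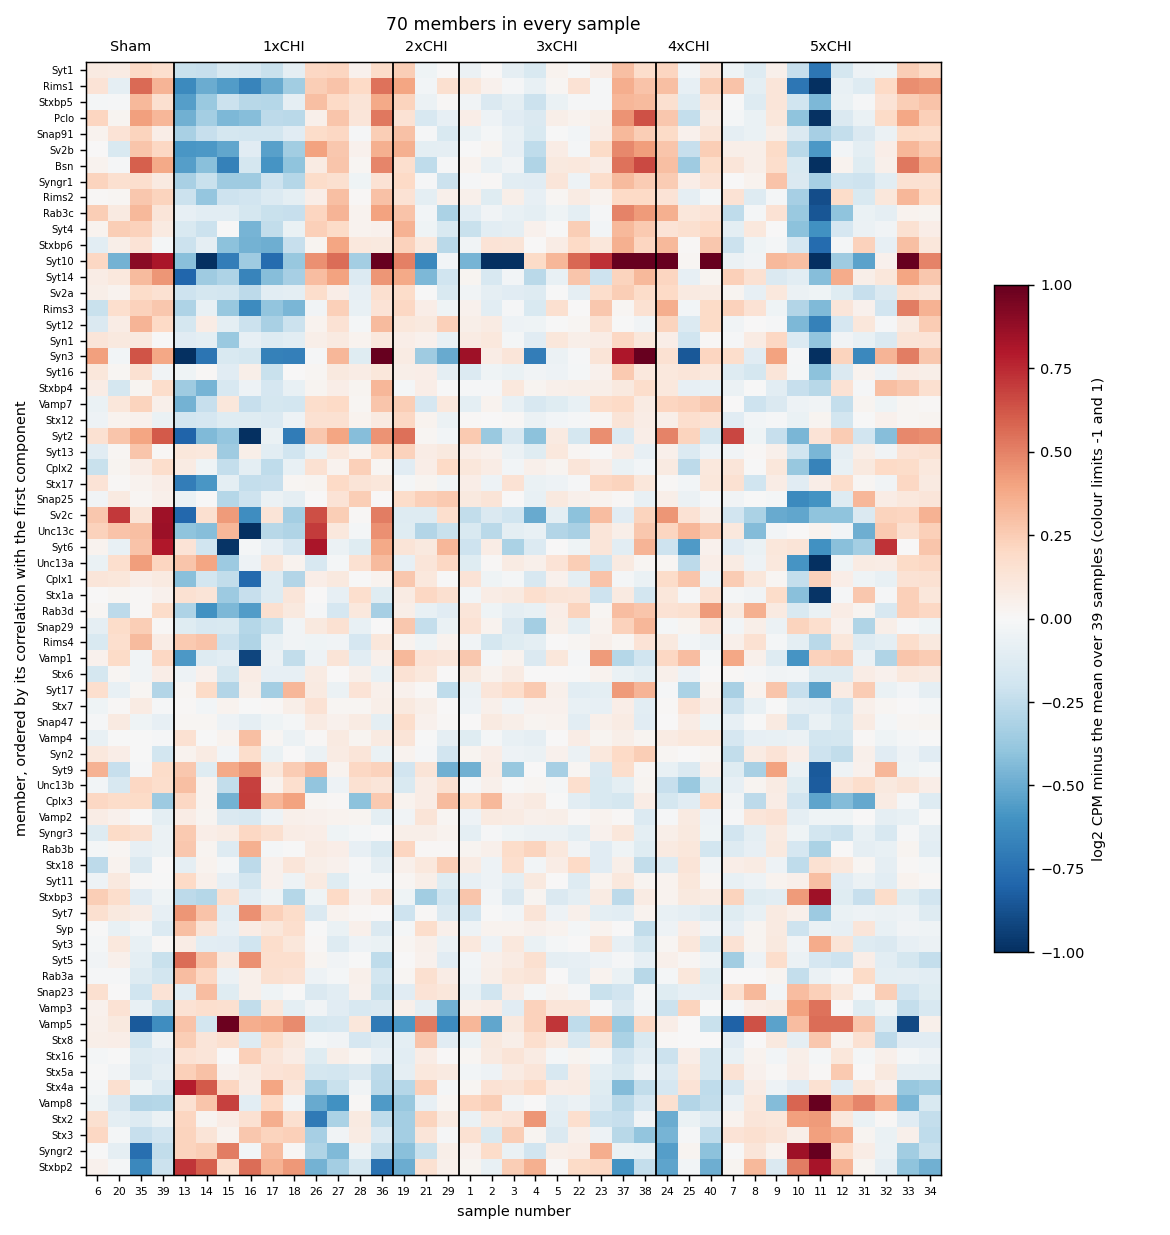
Log2 CPM of 70 members minus their mean over 39 samples, in every sample, ordered by sample number within each injury group and by correlation with the first component from top (with Syt1) to bottom (with Stxbp2). Blue blocks at the top mark 1xCHI samples 13 to 18 and 5xCHI sample 11, where the bottom rows are red; colours are clipped at −1 and 1.

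A further 50 genes of the pathway, for vesicle loading, recycling, docking and calcium entry, were measured from a fixed list. None was called in any comparison with sham-injured mice or between 5xCHI and 1xCHI. After 1xCHI 39 of 50 were lower (median log2 fold change −0.10), with 2 higher and 9 lower at an unadjusted p under 0.05, against 10.9% and 6.33% of all features. After 5xCHI 44 of 50 were lower (median −0.13), with 1 higher and 5 lower, against 7.51% and 4.07%. When samples 10 and 11 were left out, 40 of 50 were lower after 5xCHI (median −0.08), with 1 higher and 2 lower at an unadjusted p under 0.05, against 3.51% and 3.11% of all features. In the fits without 1 sample, the 9 lower after 1xCHI ranged from 2 without sample 35 (against 3.08% of all features lower) to 18 without sample 36 (13.4%). The 5 lower after 5xCHI ranged from 2 without sample 35 (2.44%) to 9 without sample 33 (6.13%).
The lowest p after 1xCHI was that of Ppfia3, a liprin of the active zone (−0.22, SE 0.08, edgeR adjusted p = 0.232). After 5xCHI it was that of Tprgl, a vesicle protein gene (0.21, SE 0.07, adjusted p = 0.360). Between 5xCHI and 1xCHI it was that of Slc17a6, the vesicular glutamate transporter gene found mainly in subcortical neurons (−0.57, SE 0.18, adjusted p = 0.0798). With 1 sample left out at most 1 of the 50 was called in this comparison, and the lowest adjusted p was 0.0330 for Slc17a6 (without sample 28) and 0.0335 for Hspa8, a chaperone gene of clathrin uncoating (without sample 31).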

How the data were processed

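The authors deposited 1 table of estimated counts, which a company had made from the reads without normalization or filtering. Of its values, 4.46% were not whole. The aligner, its version and the strand setting are not given in the sources used here. Gene identifiers matched GENCODE M21 on GRCm38. Individual values of 2 members are not reported here. Sample 30 (3xCHI at 4 h) was left out, as in the study. Members and lists were chosen with earlier results of these data known.

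Counts were rounded, and features with 10 or more counts in at least 35 of 39 samples were tested with edgeR 4.0.16 (TMM, quasi-likelihood) in R 4.3.3, all groups in each fit, with times combined or as separate groups, and Benjamini-Hochberg adjustment at 0.05. DESeq2 1.42.0 was an alternative. CPM used TMM library sizes; log2 CPM had a prior count of 1. Exact tests enumerated every split of the samples. Every member is named with its level, a core list of 20 with values by group, and those named with a test are the 3 with the lowest p in each comparison and any past the threshold, also with 1 sample left out, except the 2 not reported. The edgeR test was checked on simulated data: of 200 changed genes among 15224, it found 93% of 2-fold and 83% of 1.5-fold changes between 5xCHI and 1xCHI, and 89% and 59% between 1xCHI and sham-injured mice. It wrongly called 4 and 7 unchanged genes. Each gene was drawn independently, without the split by sample number or samples that stand apart. These rates therefore cannot give the share of changes found in the real samples. Pairs of samples within groups (46) all differed by more than sampling noise (smallest chi-square per gene 6.85). Depth, 15925995 to 27859530 counts per sample, limits scarce members most.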

Additional observations from a re-analysis of the deposited data

Results flagged for a closer look

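Of the core release genes, 18 were screened in the 4 groups of 4 to 10 samples for a highest or lowest sample far from the others, by Dixon's criterion on log2 CPM. Of 72 gene and group pairs, 6 stood out, while chance flags about 1 in 20 groups, which is 3.6 here. The genes are not independent, since they were read in the same libraries.

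Sample 11, at 24 h after 5xCHI, was the lowest of the 5xCHI group for 4 genes. Its log2 CPM was 9.95 for Syt1, 8.13 for Syt7, 6.75 for Unc13a and 7.36 for Bsn. In CPM, Unc13a was 107 against 260.5 in the nearest sample and Bsn 164 against 350.1. The same sample had the highest Gfap (2417 CPM) and C1qa (140.2 CPM) of all samples, and the part of either in these values was not tested.

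In the 3xCHI group, sample 38 was lowest for Syp, with a log2 CPM of 10.24 (1210.3 against 1385 CPM in the nearest sample). In the 1xCHI group, sample 15 was lowest for Syn1, with a log2 CPM of 8.73 (424 against 502 CPM). Sample 15 also had the highest summed level of the 15 meningeal markers (4267 CPM).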

How the results depend on the processing

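Against sham-injured mice with times combined, 0 members were called under every alternative run: DESeq2, library size scaling, no filter, all 40 samples, the sample range as a covariate, the compared groups alone and leaving out each sample. Between 5xCHI and 1xCHI, where 4 members were called, the count was 4 with DESeq2, 4 with the sample range as a covariate, 3 with all 40 samples, 1 with library size scaling, 0 with no filter and 0 with the compared groups alone. With alternatives chosen after seeing the data it was 1 with time points weighted equally (Rab3d, higher), 7 in samples 1 to 18 only, 0 in samples 19 to 40 only and 0 without samples 10 and 11, and it ranged from 0 to 5 leaving out each sample. The cause of these changes was not tested. Leaving out each sample, the count ranged from 0 to 19 at 30 min after 1xCHI (19 without sample 27), from 0 to 5 at 4 h after 1xCHI (5 without sample 36) and from 0 to 1 in the joint test of time (Stx17, without sample 27). Features called between 5xCHI and 1xCHI numbered 346, and 620 with DESeq2, 132 with no filter, 167 with time points weighted equally and 118 to 717 leaving out each sample. No paralog ratio passed the adjusted threshold under any alternative, and no named log2 fold change changed sign. No paired analysis was possible because the labels give each sample its own number, which no other group shares. The 3 samples after 2xCHI and the 3 after 4xCHI limit those comparisons.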
